A study of Mus musculus with 35 samples.

Results

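The 9 genes described here are regulators and surface or adaptor proteins by which endoderm is recognised in the early mouse embryo. They are the transcription factors Gata4, Gata6, Sox17, Sox7, Foxa1, Hhex and Hnf4a, the receptor Pdgfra and the adaptor Dab2. They were chosen by symbol, not by level, from 54446 genes measured in 27 bulk RNA-seq libraries, and all 9 were found. Each level is in TPM, a share of all transcripts in the library that is corrected for transcript length. Differences are given on the log2(TPM + 1) scale from limma, a linear model fitted across all genes. A gene was called changed when its Benjamini-Hochberg adjusted p was under 0.05 and its difference was over 1 on that scale.

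The study asked how far epiblast stem cells (EpiSCs, a pluripotent cell culture) grown in 3 dimensions resemble the epiblast of the embryo. The paper likens the profile of EpiSCs kept in FGF2 and Activin-A to the anterior primitive streak at gastrulation. ESC_3D cells were wild-type EpiSCs made from embryonic stem cells (ESCs), among them the E14 line. Embryo_3D cells were wild-type EpiSCs derived from E5.5 epiblasts of LifeAct-GFP or CD1 embryos. Both were grown in Matrigel with FGF2, Activin-A, the Wnt inhibitor XAV939 and the BMP inhibitor Noggin. EpiSC cells were ESC-derived cells kept flat on fibronectin in FGF2 and Activin-A without those inhibitors. By the study's methods their Activin-A dose was lower than in the 3D cultures, and their basal medium was another. EpiLC (epiblast-like) cells were ESCs exposed to FGF2 and Activin-A for 48 h. Growth in 3 dimensions, the inhibitors, the Activin-A dose and the basal medium therefore cannot be told apart, nor can ESC origin and genetic background. The embryos were CD-1 or came from matings with a Pdgfrα:H2B-GFP reporter line. E3.5 libraries held inner cell masses isolated by laser, E4.5 libraries held epiblast cells picked by hand for lack of the Pdgfrα reporter, and E5.5 to E7.5 libraries held pooled epiblasts freed by hand of visceral endoderm and extra-embryonic ectoderm. Each of the 9 groups had 3 libraries. The 12 culture libraries were made from polyadenylated RNA and the 15 embryo libraries from ribosome-depleted total RNA with another kit, so no level was tested between cultures and embryos.

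GATA6 is among the first factors of the primitive endoderm, the lineage that splits from the epiblast inside the blastocyst and gives rise to the visceral and parietal endoderm. GATA4, SOX17 and SOX7 follow it, PDGFRA is carried on the surface of these cells, and DAB2 serves endocytosis and polarity in them. Many of the same genes are used again at gastrulation, when SOX17, FOXA1 and HHEX mark definitive and anterior endoderm. HNF4A switches on the secretory and absorptive programme of visceral endoderm. Pdgfra, Gata4 and Gata6 are also carried by mesoderm and the forming heart.

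Where promoter sequences bear on genes that moved together, they are shown from the RefSeq promoter table on GRCm38.p6. The table held entries for 5 of the 9 genes, with 7 start sites. The windows are the 250 bases upstream of a start site, written 5′ to 3′ on the strand of the gene. Capitals mark a match, on either strand, to the core letters of 4 motif families. GATA factors were searched by AGATAA and, as an equal choice, TGATAA. Forkhead (FOX) factors were searched by GTAAACA, SOX factors by AACAAT and HNF1 factors by GTTAAT. Foxa1, Hnf4a and Pdgfra are shown because they were the members called higher at E5.5 than at E4.5, and Dab2 because it was the most abundant of the 9 genes in every embryo library.
Foxa1, chr12:57546112-57546361, minus strand: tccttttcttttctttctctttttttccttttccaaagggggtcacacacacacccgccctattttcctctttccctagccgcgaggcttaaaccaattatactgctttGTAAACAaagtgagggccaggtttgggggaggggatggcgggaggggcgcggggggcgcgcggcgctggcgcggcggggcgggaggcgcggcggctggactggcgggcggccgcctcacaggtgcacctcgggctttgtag
Hnf4a second start, chr2:163546905-163547154, plus strand: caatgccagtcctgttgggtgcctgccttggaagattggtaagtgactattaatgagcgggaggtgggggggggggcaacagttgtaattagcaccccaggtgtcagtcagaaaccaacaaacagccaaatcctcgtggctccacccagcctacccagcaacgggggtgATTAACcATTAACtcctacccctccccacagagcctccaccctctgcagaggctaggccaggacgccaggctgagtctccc
Pdgfra, chr5:75152001-75152250, plus strand: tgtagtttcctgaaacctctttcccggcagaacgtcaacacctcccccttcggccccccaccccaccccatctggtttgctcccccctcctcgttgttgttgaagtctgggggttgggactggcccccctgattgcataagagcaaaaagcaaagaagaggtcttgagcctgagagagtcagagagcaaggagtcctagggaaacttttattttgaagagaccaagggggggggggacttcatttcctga
Dab2 first start, chr15:6299539-6299788, plus strand: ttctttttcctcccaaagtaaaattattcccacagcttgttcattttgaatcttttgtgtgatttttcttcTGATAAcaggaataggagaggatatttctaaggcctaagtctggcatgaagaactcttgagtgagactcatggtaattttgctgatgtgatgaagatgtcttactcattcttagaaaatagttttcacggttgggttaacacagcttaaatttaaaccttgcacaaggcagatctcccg
The FOX match before Foxa1 began 141 bases upstream of the start. The paired HNF1 matches before the second Hnf4a start began 81 and 74 bases upstream, and the GATA match before Dab2 began 179 bases upstream. The first Hnf4a start also had a GATA match 52 bases upstream and the second Dab2 start an HNF1 match 65 bases upstream, while the Hhex and Pdgfra windows held none of the 4 motifs. Over all 32851 windows of the table, 16.6% held the GATA letters, 9.42% the SOX letters, 6.43% the HNF1 letters and 3.17% the FOX letters. A match is a description of these letters and was not tested for binding.

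Several libraries stood apart from the others of their group before any comparison was made. ESC_3D replicates 1 and 2 differed by a median of 0.061 on the log2(TPM + 1) scale over the genes tested, Embryo_3D replicates 2 and 3 by 0.057 and EpiSC replicates 1 and 2 by 0.065. In each of these groups 2 of 3 libraries were thus near-identical, and the remaining library was the one that differed. The labels do not say whether replicates were separate cultures, so p-values measure only the spread between these libraries. In ESC_3D, replicate 3 lay over 1 log2 unit above both other replicates for Gata6, Sox17, Foxa1 and Hhex, which is 4 of the 7 members that could be tested, against 2.95% of all 11541 genes. No member lay that far below, against 0.494% of all genes. The calls of the members and the list counts that rest on ESC_3D are therefore given with and without replicate 3.

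Gata6 and Gata4, the GATA factors of primitive endoderm, did not follow each other in culture. Gata6 lies on chromosome 18 (11052508 to 11085635, plus strand, mm10) and Gata4 on chromosome 14 (63198922 to 63271692, minus strand). Gata6 was at 0.0628, 0.118 and 5.42 TPM in ESC_3D replicates 1 to 3, at 5.32, 9.25 and 9.57 TPM in Embryo_3D, at 23.5, 24.0 and 17.1 TPM in EpiSC and at 0.214, 0.143 and 0.227 TPM in EpiLC. The 2D EpiSCs were highest in all libraries, Embryo_3D was in the middle, and ESC_3D was split, with replicate 3 inside the Embryo_3D range and the other two below the EpiLC libraries.
Gata4 was at 0.0542, 0.127 and 0.495 TPM in ESC_3D, 0.676, 0.309 and 0.652 TPM in Embryo_3D, 10.5, 10.3 and 3.90 TPM in EpiSC and 0.598, 0.228 and 0.241 TPM in EpiLC. Only the EpiSC libraries passed 2 TPM, and EpiSC replicate 3 was below the other 2 EpiSC libraries. The ratio of Gata4 to Gata6 within a library ran from 0.228 to 0.448 in EpiSC and from 0.0334 to 0.127 in Embryo_3D, so the 2 groups did not overlap in it. Embryo_3D cells thus carried Gata6 with little Gata4 on a scale corrected for length.

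**Figure D1:**
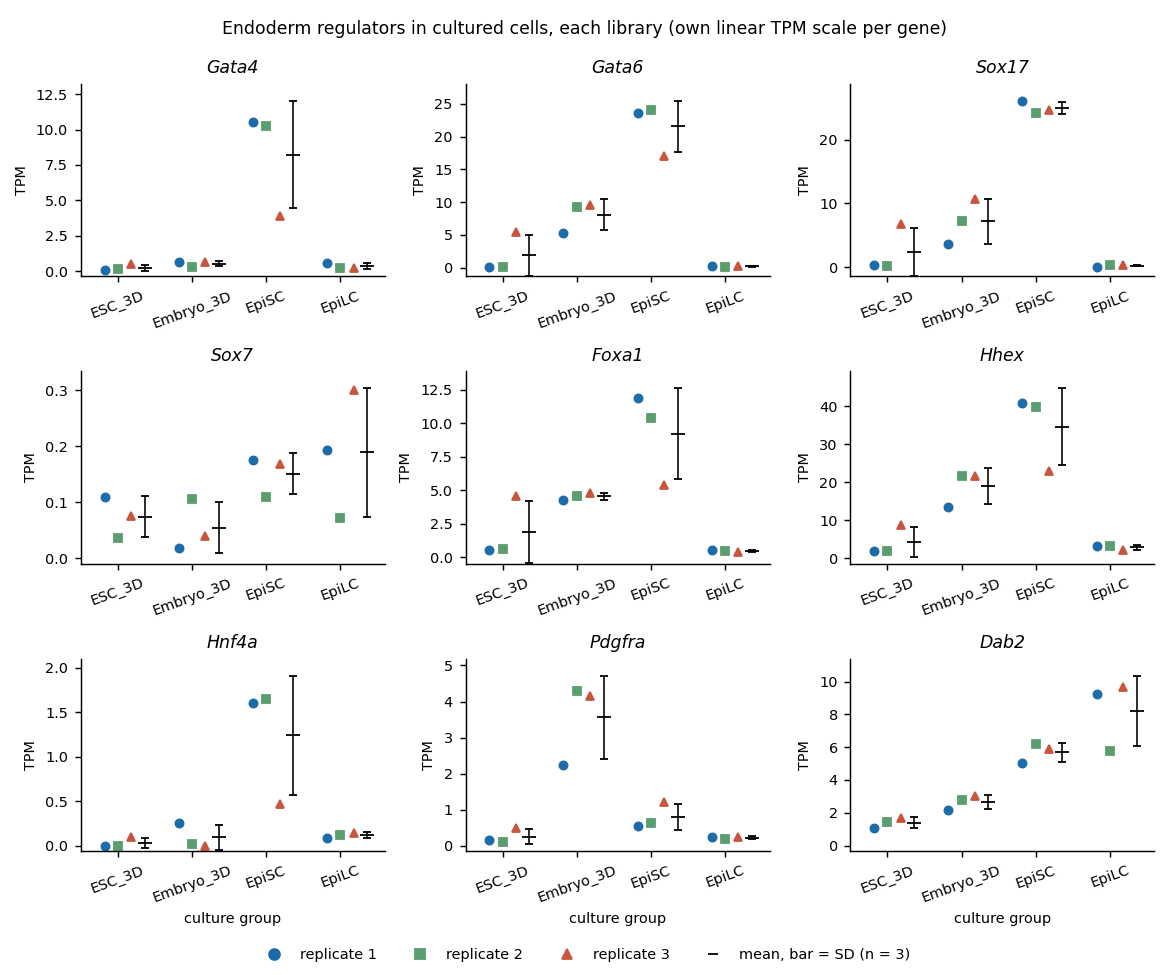
TPM of the 9 genes (vertical axes, a linear scale of its own for each gene) in the 4 culture groups (horizontal axes). Symbols are single libraries by replicate number, and the black dash with its bar is the mean with SD (n = 3). ESC_3D replicate 3, the triangle, sits above the other ESC_3D libraries for Gata6, Sox17, Foxa1 and Hhex, and Pdgfra is highest in Embryo_3D.

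Sox17 and Sox7 are close relatives in the SOX F family that take part in endoderm and vessels. Sox17 (chromosome 1, 4490931 to 4497354, minus strand) was at 0.262, 0.235 and 6.73 TPM in ESC_3D, 3.68, 7.21 and 10.7 TPM in Embryo_3D, 26.1, 24.3 and 24.7 TPM in EpiSC and 0.0815, 0.261 and 0.299 TPM in EpiLC. The order of the groups was that of Gata6, and again ESC_3D replicate 3 alone reached the Embryo_3D range. Sox7 (chromosome 14, 63943673 to 63950732, plus strand) was near 0 in every culture library, from 0.0194 to 0.301 TPM, and was too low to be tested. The third SOX F gene, Sox18, was between 0 and 0.614 TPM in ESC_3D, Embryo_3D and EpiSC and at 1.06, 1.39 and 1.03 TPM in EpiLC. Of the 3 SOX F genes, Sox17 was the one above 2 TPM in cultures.

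Foxa1, a pioneer factor of endoderm, Hhex, a homeobox factor of anterior endoderm, and Hnf4a, a nuclear receptor of visceral endoderm and liver, differed in how much of their EpiSC level was found in 3D. Foxa1 (chromosome 12, 57540628 to 57546916, minus strand) was at 0.509, 0.608 and 4.59 TPM in ESC_3D, 4.26, 4.54 and 4.80 TPM in Embryo_3D, 11.9, 10.4 and 5.41 TPM in EpiSC and 0.542, 0.463 and 0.401 TPM in EpiLC. The Embryo_3D libraries were the most even of the groups above 1 TPM, and EpiSC replicate 3 lay nearer to them than to the other EpiSC libraries.
Hhex (chromosome 19, 37434810 to 37440731, plus strand) had the highest mean of the members in EpiSC, at 40.9, 39.9 and 23.0 TPM, and was at 13.6, 21.6 and 21.7 TPM in Embryo_3D. It was at 1.99, 1.92 and 8.75 TPM in ESC_3D and 3.28, 3.23 and 2.11 TPM in EpiLC. ESC_3D replicate 3 was here below every Embryo_3D library, unlike for Gata6, Sox17 and Foxa1.
Hnf4a (chromosome 2, 163506808 to 163572910, plus strand) was above 1 TPM only in EpiSC replicates 1 and 2, at 1.61 and 1.65 TPM, with 0.465 TPM in EpiSC replicate 3. It was listed at 0 in ESC_3D replicates 1 and 2 and at 0.0938 TPM in replicate 3, at 0.251, 0.0234 and 0 TPM in Embryo_3D, and from 0.0886 to 0.147 TPM in EpiLC.

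Pdgfra, the receptor for PDGF-A, and Dab2, an endocytic adaptor, are not transcription factors and each had an order of its own. Pdgfra (chromosome 5, 75152292 to 75198215, plus strand) was at 2.24, 4.30 and 4.16 TPM in Embryo_3D, against 0.149, 0.113 and 0.491 TPM in ESC_3D, 0.554, 0.631 and 1.22 TPM in EpiSC and 0.245, 0.170 and 0.245 TPM in EpiLC. All Embryo_3D libraries were above every other culture library. Dab2 (chromosome 15, 6299788 to 6440712, plus strand) was at 1.08, 1.46 and 1.68 TPM in ESC_3D, 2.19, 2.80 and 3.04 TPM in Embryo_3D, 5.01, 6.16 and 5.86 TPM in EpiSC and 9.21, 5.77 and 9.68 TPM in EpiLC. Its mean was highest in EpiLC, although EpiLC replicate 2 lay inside the EpiSC range, and ESC_3D replicate 3 was close to replicate 2.

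The first culture question was how the 3D lines differ from 2D EpiSCs. Of the 9 members, 7 passed the filter of 2 TPM in 3 culture libraries and entered the tests, while Sox7 and Hnf4a did not. Gata4 passed only through EpiSC and Pdgfra only through Embryo_3D, so their differences are in part a result of that filter. In ESC_3D against EpiSC, Sox17, Gata6, Hhex, Gata4, Foxa1 and Dab2 were called lower, against a background of 9.25% of 11541 genes called lower, and the median difference of all genes was -0.21. The differences were -3.50 for Sox17 (SE 0.57) and for Gata6 (SE 0.54), -2.97 for Hhex (SE 0.41), -2.83 for Gata4 (SE 0.28), -2.04 for Foxa1 (SE 0.41) and -1.48 for Dab2 (SE 0.17), with adjusted p-values from 3.33e-05 to 0.00269. The Foxa1 call was lost, at -1.58 and an adjusted p of 0.0682, when near-identical replicates were averaged. Without ESC_3D replicate 3 the same 6 members were called, with Gata6 at -4.36, Sox17 at -4.38, Hhex at -3.55, Gata4 at -2.98, Foxa1 at -2.65 and Dab2 at -1.56. Pdgfra missed the call at -0.52 (95% confidence interval -0.95 to -0.09, adjusted p 0.0502), and stood at -0.65 without that replicate.

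In Embryo_3D against EpiSC, Gata4 and Sox17 were called lower, where 7.75% of genes were, and Pdgfra was called higher, where 1.07% were. The median difference of all genes was -0.08, and the EpiSC libraries are shared with the comparison before. Pdgfra was higher by 1.33 (SE 0.20, adjusted p 0.000413). Sox17 was lower by -1.77 with an adjusted p of 0.0343, a call lost in 8 of 15 alternatives. It was lost without either Embryo_3D replicate 1 (-1.41, adjusted p 0.116) or replicate 2 (-1.82, adjusted p 0.0754), and without any 1 of the EpiSC replicates (adjusted p 0.0766 to 0.0888). The others were a pseudocount of 0.1 (adjusted p 0.154), no filter on low values (adjusted p 0.103) and averaging near-identical replicates (adjusted p 0.1025). Gata6 at -1.34 (95% confidence interval -2.51 to -0.17), Foxa1 at -0.82 (-1.73 to 0.08), Hhex at -0.82 (-1.71 to 0.08) and Dab2 at -0.87 (-1.24 to -0.49) were not called.

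The direct test between the 3D lines, which share a medium and differ in origin, called Gata6, Hhex and Pdgfra lower in ESC_3D, where 1.98% of genes were called lower. Gata6 was lower by -2.16 (SE 0.54, adjusted p 0.0178), Hhex by -2.16 (SE 0.41, adjusted p 0.00484) and Pdgfra by -1.85 (SE 0.20, adjusted p 0.000104). Without ESC_3D replicate 3, Sox17 at -2.62 and Foxa1 at -1.83 were called too, and Gata6 stood at -3.02, Hhex at -2.73 and Pdgfra at -1.98. The Gata6 call was kept in 8 of 15 alternatives. It was lost when genes were not filtered on level (adjusted p 0.0675) and when only these groups were fitted (adjusted p 0.0955). It was also lost without ESC_3D replicate 1 (-1.72, adjusted p 0.0740), ESC_3D replicate 2 (-1.75, adjusted p 0.0758), Embryo_3D replicate 2 (-2.05, adjusted p 0.0642) or Embryo_3D replicate 3 (-2.03, adjusted p 0.0653). Averaging near-identical replicates left Pdgfra alone, with Gata6 at -1.62 (adjusted p 0.256) and Hhex at -1.76 (adjusted p 0.112), and Pdgfra was called in all 15 alternatives. Pdgfra passed the filter only through Embryo_3D, so its call is in part a result of that filter.

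**Figure D2:**
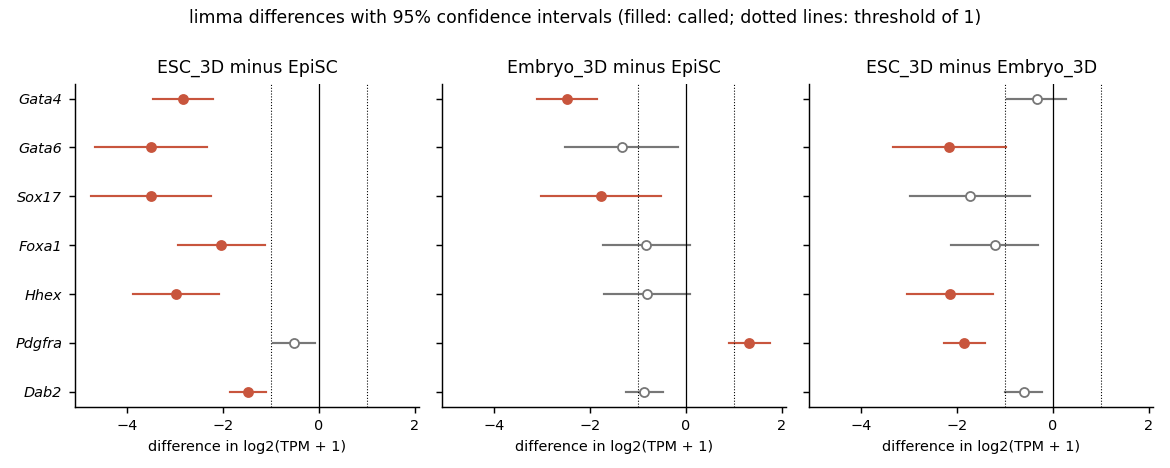
Differences in log2(TPM + 1) (horizontal axes) of the 7 members tested in culture (vertical axis), with 95% confidence intervals from limma. Filled red points were called and open grey points were not; dotted lines mark the threshold of 1. Dab2, Foxa1 and the endoderm factors lie left of 0 in ESC_3D against EpiSC, and Pdgfra is the one member called higher, in Embryo_3D against EpiSC.

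Against EpiLC, the 2 kinds of 3D culture gave different lists of calls. In ESC_3D only Dab2 was called, lower by -1.92 (SE 0.17, adjusted p 4.56e-06), where 7.11% of genes were called lower. Gata6 at 0.72 (95% confidence interval -0.45 to 1.89), Sox17 at 0.92 (-0.33 to 2.17) and Foxa1 at 0.70 (-0.21 to 1.61) were not called, and without replicate 3 they stood at -0.13, 0.04 and 0.09, Hhex at -0.38 and Pdgfra at -0.11, while Dab2 was still called at -2.0. In Embryo_3D, Gata6 was higher by 2.88, Sox17 by 2.66, Hhex by 2.35, Foxa1 by 1.91 and Pdgfra by 1.87, with adjusted p-values from 1.09e-05 to 0.00214, where 10.5% of genes were called higher. Dab2 was lower by -1.31 there, where 8.28% of genes were called lower. In EpiSC, Sox17 was higher than in EpiLC by 4.43, Gata6 by 4.22, Hhex by 3.17, Foxa1 by 2.74 and Gata4 by 2.68, where 15.2% of genes were called higher. Gata4 passed the filter only through EpiSC and Pdgfra only through Embryo_3D, so their calls here are in part a result of that filter. The EpiLC group is shared by these 3 comparisons.

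Genes of definitive, visceral and parietal endoderm were read beside the members. Of 12 definitive and anterior endoderm genes tested, 7 were lower and none higher in ESC_3D than in EpiSC, with a median of -1.42, against -0.21 for all genes. Of all genes, 9.25% were called lower in ESC_3D and 7.75% in Embryo_3D than in EpiSC, which are the shares for the lists below. Without ESC_3D replicate 3 the same 7 were lower, with a median of -1.70, against -0.27 for all genes. Cer1, a secreted Nodal and BMP inhibitor, was at 2.44, 2.36 and 119 TPM in ESC_3D, 56.7, 218 and 217 TPM in Embryo_3D and 369.9, 369.6 and 309 TPM in EpiSC. In Embryo_3D against EpiSC, 5 of the 12 were lower and 2, Mixl1 and Foxa2, were higher, where 1.07% of all genes were called higher. In ESC_3D against EpiLC, 8 of the 12 were higher and 1 lower, where 615 of 11541 genes were called higher and 821 lower. Without ESC_3D replicate 3, 6 were higher and 1 lower, where 516 genes were called higher and 941 lower. In Embryo_3D against EpiLC, 8 were higher and none lower, where 1215 genes were called higher. Of the 20 visceral endoderm products, 4 could be tested, and Afp, Ttr and Apoa2 were at 0 or under 1 TPM in all culture libraries. Apoe and Lrp2, which many tissues carry, were lower in both 3D lines than in EpiSC, and Rbp4, a retinol carrier of visceral endoderm, was lower in ESC_3D, which made 3 of 4 there. Without ESC_3D replicate 3 the same 3 were lower. Of 10 basement membrane and parietal endoderm genes tested, 8 were lower in ESC_3D and 7 in Embryo_3D than in EpiSC, and without ESC_3D replicate 3 the count in ESC_3D was 9, with Lamb1 added. None of 8 epiblast markers was called in ESC_3D or Embryo_3D against EpiSC, nor in ESC_3D without replicate 3. Lower calls were not confined to endoderm lists. Of 4 trophoblast markers tested, 3 were lower in ESC_3D (median -1.51) and 1, Gata3, in Embryo_3D. Of 4 mesoderm markers tested, 2 were lower in ESC_3D (median -1.04) and 1 in Embryo_3D, where 1, Mixl1, was higher. Without ESC_3D replicate 3, 3 trophoblast and 3 mesoderm markers were lower. Several genes stand on more than 1 list, Foxa2 and Foxa3 among them. In bulk samples fewer cells of a type and less RNA per cell cannot be told apart.

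Definitive endoderm genes were also among those that set ESC_3D replicate 3 apart. Cer1, Gsc, Lhx1, Cxcr4, Trh, Prdm1 and Cyp26a1, 7 of 12 tested, were over 1 log2 unit above both other replicates, as were 0 of 8 epiblast markers, 0 of 4 mesoderm markers, 0 of 3 endothelium and blood markers, 0 of 5 family relatives and 0 of 7 partners. So were 2 of 4 trophoblast markers, Krt7 and Ascl2, 1 of 4 visceral endoderm products, Rbp4, and 1 of 10 basement membrane and parietal endoderm genes, Nid1. Cxcr4, a chemokine receptor of definitive endoderm, was at 0.577, 0.752 and 11.9 TPM. In replicate 3, Gata6 was 45.9 times and Sox17 25.7 times the higher of the other 2 replicates, Foxa1 7.56 times and Hhex 4.4 times. Foxa2, the close relative of Foxa1 that is needed for node and foregut, went the other way, at 32.6, 32.5 and 17.2 TPM, as did Eomes, at 41.3, 40.7 and 24.6 TPM. T, a primitive streak factor, was at 12.3, 14.1 and 23.0 TPM in ESC_3D, highest in replicate 3. In Embryo_3D, replicate 1 stood apart, with Foxa2 at 123, 50.1 and 50.6 TPM and T at 54.6, 21.4 and 22.0 TPM, both highest in it, while Cer1, Gata6, Sox17, Hhex and Pdgfra were lowest in that replicate. The part of these markers in the members' values was not tested.

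Relatives and partners of the members were measured beside them. Of 5 family relatives tested in culture, Foxa2 was higher in Embryo_3D than in EpiSC, and Gata3 and Foxa3 were lower in both 3D lines, in ESC_3D also without its replicate 3. Gata3 passed the filter only through EpiSC, so its calls are in part a result of that filter. Foxa2 was above Foxa1 in every ESC_3D, Embryo_3D and EpiSC library. Of 7 ligands, cofactors and partners tested, Fgfr2, the FGF receptor of primitive endoderm, the endocytic receptor Lrp2, which Dab2 serves, and Zfpm1, a cofactor of GATA factors, were lower in both 3D lines than in EpiSC, and Pdgfa was lower in ESC_3D. Those 4 were also the ones called lower without ESC_3D replicate 3. Pdgfa, the ligand of Pdgfra, was at 16.5, 11.97 and 12.8 TPM in Embryo_3D and 7.41, 6.08 and 4.78 TPM in ESC_3D, and was called lower in ESC_3D than in Embryo_3D, by -1.06. Without ESC_3D replicate 3 the ligand was at -0.92 and no longer called.

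In the embryo, the members split into those highest in the inner cell mass and those that came later. All 9 passed the filter over the 15 embryo libraries. Markers of tissues other than epiblast were measured in these libraries. Trophoblast markers summed to between 456 and 482 TPM in the E3.5 libraries and 422 to 432 TPM at E4.5, against 15.8 to 17.4 TPM at E5.5. Visceral endoderm products summed to 896 to 949 TPM at E3.5 and 915 to 1020.2 TPM at E4.5, with Afp, Rbp4 and Fgb at 0 in all those libraries, and to 1710.1 to 1839.6 TPM at E5.5 and 3126 to 3209 TPM at E7.5, with all 20 above 1 TPM. Epiblast markers summed to 1145 to 1644 TPM up to E6.5. RNA was fragmented for longer at a lower temperature for E3.5 and E4.5 than for the later days, which cannot be told apart from the step between E4.5 and E5.5.

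**Figure D3:**
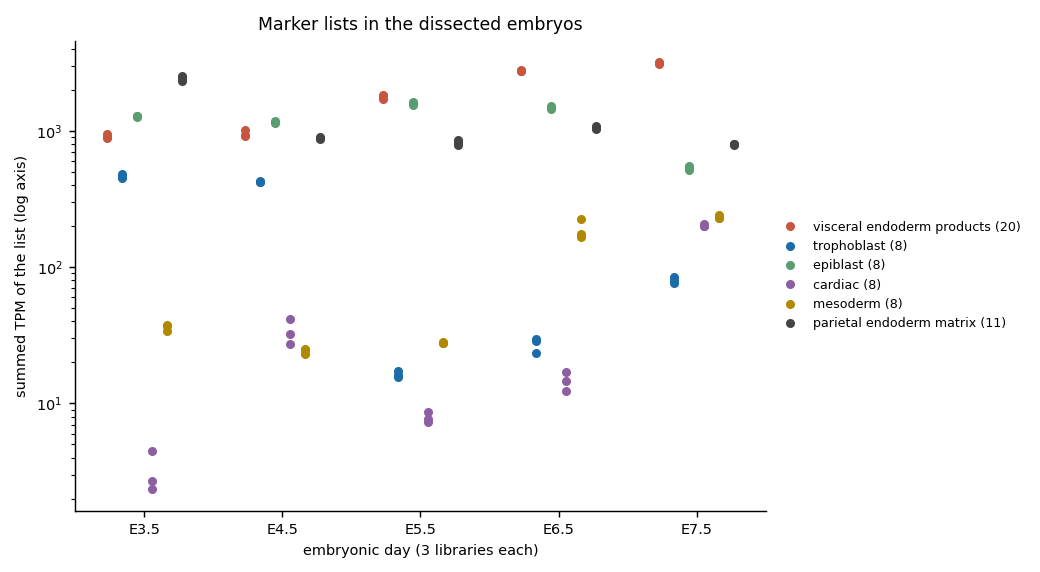
Summed TPM (vertical log axis) of 6 marker lists in the 3 libraries of each embryonic day (horizontal axis); each point is 1 library and the number of genes in a list is in brackets. Trophoblast markers are high at E3.5 and E4.5, visceral endoderm products are highest at E7.5, from 3126 to 3209 TPM, and so are cardiac markers, from 201 to 207 TPM.

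From E3.5 to E4.5, Pdgfra, Gata6, Sox17, Gata4 and Sox7 were called lower, where 11.9% of 11880 genes were, and the median difference of all genes was -0.10. Gata6 went from 122, 119 and 112 TPM to 9.48, 8.84 and 7.60 TPM, a difference of -3.63 (SE 0.10, adjusted p 5.73e-12). Sox17 went from 83.3, 77.4 and 89.5 TPM to 17.2, 12.7 and 9.99 TPM, a difference of -2.59 (SE 0.16, adjusted p 1.05e-08). Gata4 went from 92.2, 93.6 and 89.8 TPM to 20.02, 23.0 and 16.7 TPM, a difference of -2.16 (SE 0.13, adjusted p 8.04e-09). For all 3 genes every E3.5 library was above every E4.5 library, a lack of overlap that 58.6% of all genes showed. Sox7, at 26.3, 27.6 and 26.95 TPM against 9.02, 10.2 and 8.52 TPM, was lower by -1.45 (SE 0.11, adjusted p 6.72e-08).
Pdgfra went from 116, 109 and 116 TPM to 3.25, 4.05 and 2.39 TPM, but E4.5 cells were picked for lack of its reporter, so this fall was set by the picking and is no finding. For the other primitive endoderm genes, age and that choice of cells cannot be told apart. Of 11 basement membrane and parietal endoderm genes, 9 were called lower as well, with a median of -1.67.

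Dab2, Hhex, Hnf4a and Foxa1 were not called in that step. Dab2 remained at 177, 165 and 161 TPM at E4.5 after 249, 234 and 231 TPM at E3.5, a difference of -0.50 (SE 0.07, adjusted p 4.25e-05) that is under the threshold of 1. Hnf4a spread most at E4.5, at 6.66, 2.84 and 11.6 TPM against 13.0, 13.3 and 12.6 TPM, a difference of -0.96 (SE 0.29, adjusted p 0.0114). It passed the threshold without E4.5 replicate 1 (-1.01) or replicate 3 (-1.37). Hhex was at 8.17, 9.26 and 7.23 TPM and then 6.12, 2.76 and 6.83 TPM. Foxa1 was under 1 TPM in all 6 libraries of these days and was listed at 0 in 1 of them.

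**Figure D4:**
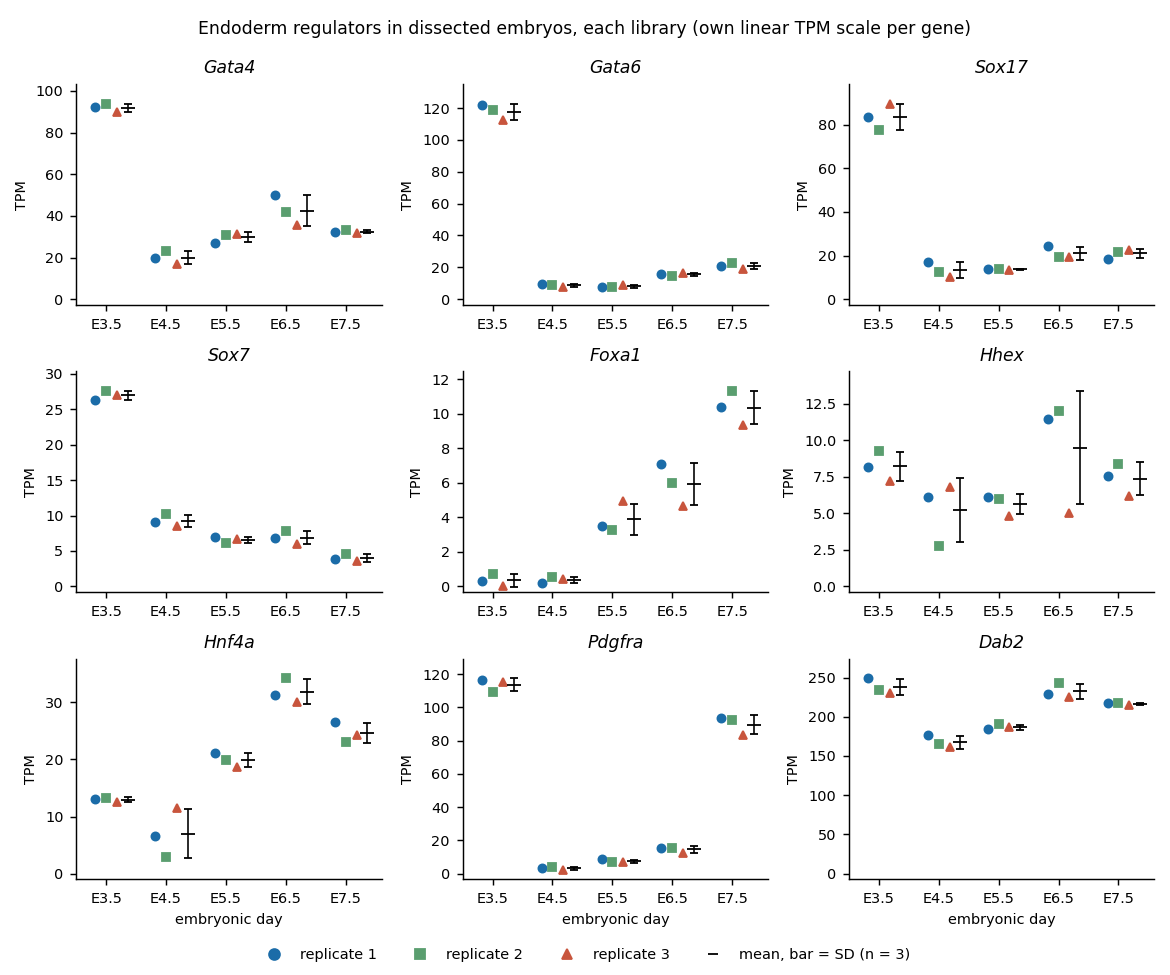
TPM of the 9 genes (vertical axes, a linear scale of its own for each gene) by embryonic day (horizontal axes). Symbols are single libraries by replicate number, and the black dash with its bar is the mean with SD (n = 3). Gata4, Gata6, Sox17 and Sox7 are highest at E3.5, Foxa1 is highest at E7.5, and Pdgfra is high at E3.5 and again at E7.5.

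From E4.5 to E5.5, Foxa1, Hnf4a and Pdgfra were called higher, where 14.9% of genes were, with a median of 0.16 over all genes. Foxa1 went from 0.176, 0.539 and 0.426 TPM to 3.48, 3.28 and 4.92 TPM, a difference of 1.82 (SE 0.19, adjusted p 2.34e-06). Hnf4a reached 21.2, 19.9 and 18.7 TPM, a difference of 1.54 (SE 0.29, adjusted p 0.00035). All E5.5 libraries were above all E4.5 libraries for both genes, and the libraries of these days did not overlap for 64.2% of all genes. Pdgfra, at 8.51, 6.89 and 7.04 TPM, was higher by 1.02, but its E4.5 level was set by the picking, and the call was lost without E4.5 replicate 3 (0.87) or E5.5 replicate 1 (0.93), and with rescaled TPM (0.90).
Gata6 stood at 7.60, 7.44 and 8.99 TPM at E5.5, overlapping its E4.5 libraries, and Sox17 at 14.1, 13.6 and 13.4 TPM lay within its E4.5 range. Hhex was at 6.13, 5.99 and 4.84 TPM, Sox7 at 6.96, 6.10 and 6.67 TPM and Dab2 at 184, 190.2 and 186 TPM, none of them called. Gata4 at 26.98, 30.9 and 31.4 TPM was above its E4.5 level by 0.56, under the threshold. In the same step 14 of 19 visceral endoderm products were called higher, with Afp, a serum protein of visceral endoderm, from 0 in all E4.5 libraries to 75.5, 83.1 and 84.2 TPM and Ttr, a thyroid hormone carrier, to 80.0, 85.0 and 89.5 TPM. The 5 trophoblast markers tested were all called lower, where 1125 of 11880 genes were. The part of either list in the members' values was not tested.

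Between E5.5 and E6.5 limma called none of the 9 members, where 1.2% of genes were called in either direction. At an unadjusted p under 0.05 there were 7 of the 9, against 3163 of all 11880 genes. An adjusted p under 0.05 was reached by 5, with differences under 1, and the share of all genes at that cut was not counted. The nearest to the threshold were Gata6, from 7.60, 7.44 and 8.99 TPM to 15.7, 14.8 and 16.6 TPM, a difference of 0.89 (95% confidence interval 0.68 to 1.11, adjusted p 0.000121), and Pdgfra, to 15.6, 15.7 and 12.3 TPM, a difference of 0.87 (0.57 to 1.17, adjusted p 0.00169). For both genes all E6.5 libraries were above all E5.5 libraries, as these days did not overlap for 31.3% of all genes. Sox17 at 24.5, 19.1 and 19.4 TPM, Gata4 at 50.1, 41.9 and 35.6 TPM and Dab2 at 229.5, 243 and 225 TPM were also above all their E5.5 libraries, with differences of 0.58, 0.49 and 0.31. So was Hnf4a at 31.3, 34.2 and 30.0 TPM, with a difference of 0.65 (adjusted p 0.164). Foxa1 at 7.11, 5.99 and 4.69 TPM overlapped its E5.5 libraries, as did Sox7 at 6.90, 7.76 and 5.99 TPM, and Hhex was split at E6.5, at 11.5, 11.99 and 5.04 TPM. Of 19 visceral endoderm products 1, Rbp4, was called higher, and of 8 mesoderm markers 6 were.

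From E6.5 to E7.5, Pdgfra alone was called, higher by 2.55 (SE 0.14, adjusted p 6.70e-09), where 10.6% of genes were called higher and the median of all genes was 0.31. It went from 15.6, 15.7 and 12.3 TPM to 93.7, 92.2 and 83.2 TPM. All 8 cardiac markers were called higher in the same step, summing to 201 to 207 TPM after 12.3 to 17.1 TPM. Tbx5, Mef2c, Nkx2-5, Tnnt2 and Isl1 among them passed the filter on low values only with their E7.5 libraries. That count is therefore in large part a result of the filter. Of 8 epiblast markers 6 were called lower, summing to 518 to 549 TPM, where 231 of 11880 genes were called lower. Of the family relatives, Gata5, Gata3, Pdgfrb, Sox18 and Gata2 were called higher, 5 of 8 tested, though Pdgfrb passed the filter only with its E7.5 libraries. Pdgfa, the ligand, went from 9.04, 6.22 and 8.45 TPM to 32.9, 26.8 and 32.7 TPM and was called higher. The part of mesoderm and heart cells in the Pdgfra value was not tested. Visceral endoderm products stood at the level given above, with 2 of 19 called higher.
The endoderm factors moved less. Foxa1 reached 10.4, 11.3 and 9.38 TPM, its highest in the embryo, a difference of 0.73 (adjusted p 0.00693), and Gata6 20.8, 22.6 and 19.1 TPM, a difference of 0.39 (adjusted p 0.00568). Gata4 at 32.3, 33.4 and 31.8 TPM, Sox7 at 3.81, 4.63 and 3.62 TPM, Hnf4a at 26.5, 23.0 and 24.4 TPM and Hhex at 7.58, 8.40 and 6.16 TPM were lower than at E6.5 by under 1. Sox17, at 18.4, 21.8 and 22.7 TPM, differed by -0.00014, with a 95% confidence interval of -0.34 to 0.34. Dab2, at 217, 218 and 215 TPM, differed by -0.10 (-0.25 to 0.05). These small differences moved with the scaling. After TPM were rescaled by median-of-ratios factors, which took the median of all genes to 0.01, Gata6 differed by 0.067 (adjusted p 0.647), Foxa1 by 0.42 (adjusted p 0.104) and Sox17 by -0.32 (adjusted p 0.132), while Pdgfra was still called at 2.23. Other members then lay further below 0, still under the threshold. They were Sox7 at -0.92 (adjusted p 1.25e-05), Gata4 at -0.69 (0.000674), Dab2 at -0.44 (0.000139), Hnf4a at -0.68 (0.0763) and Hhex at -0.55 (0.153).

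Ordered by their mean, the days fell differently for each gene. For Gata6 the order was E3.5, E7.5, E6.5, E4.5 and E5.5, with the last 2 overlapping. Sox7 was ordered E3.5, E4.5, E6.5, E5.5 and E7.5, with E6.5 and E5.5 overlapping. The ratio of Sox7 to Sox17 within a library was 0.301 to 0.356 at E3.5, 0.526 to 0.852 at E4.5, 0.448 to 0.499 at E5.5, 0.281 to 0.405 at E6.5 and 0.159 to 0.213 at E7.5. The ratio of Gata4 to Gata6 was 0.755 to 0.799 at E3.5, 2.11 to 2.61 at E4.5 and 3.49 to 4.15 at E5.5. It was 2.14 to 3.19 at E6.5 and 1.48 to 1.67 at E7.5, and only the E4.5 and E6.5 ranges overlapped. Gata6 thus exceeded Gata4 in the E3.5 libraries and was below it in all later embryo libraries. Dab2 varied least, its group means lying between 168 and 238 TPM.

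For each member the 3 genes of most similar pattern were found by the mean absolute difference of group means, each taken as a percentage of the gene's own highest group mean, over the 9 groups and 12592 genes. These values are descriptions, since the 9 groups share the split between 2 kits. Nearest to Gata4 were Myo7a at 2.98 percentage points, Pth1r and Adgrf5, to Gata6 Rhpn1 at 2.77, Emp2 and P4ha2, to Sox17 Serpinb6b at 4.74, Fgf10 and Abca3, and to Sox7 Lama1 at 2.16, Gm26558 and 2200002D01Rik. Pth1r, a receptor of parietal endoderm, and Lama1, a laminin chain of its basement membrane, are also on the parietal endoderm list.
Nearest to Foxa1 were Fam110c at 5.20, Sh3pxd2b and Timp2, to Hhex Tent5a at 6.65, Fzd5 and Fam131a, and to Pdgfra Sox6 at 4.55, Wnt3a and Zfp9. Nearest to Hnf4a were the histone gene Hist1h4k at 3.58, Amn, a receptor subunit of visceral endoderm, and Hist1h2ac, and the 3 nearest to Dab2, from 5.94 to 8.16 percentage points, were all histone genes (Hist1h1c, Hist1h2ab and Hist1h2bb). Most histone transcripts lack a poly(A) tail, and only the embryo libraries were made from total RNA.

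Reads of overlapping genes on the other strand limit 5 of the members, since the strand setting of the counting was not given in the sources used here. The overlapping gene at Gata6 was 1010001N08Rik, at up to 20.6 TPM, and those at Sox17, Hnf4a, Pdgfra and Dab2 were at most at 2.24 TPM. The TPM file holds no read counts, so the depth behind each value is unknown.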

How the data were processed

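Bulk RNA-seq of 27 libraries was analysed. The single-cell and bisulfite samples of the series were not analysed here. Per the study's methods, alignment to mm10 by STAR followed adapter removal with cutadapt 2.4, and the authors deposited TPM values that StringTie had estimated, without read counts. TPM corrects for transcript length and scales each library to 1000000, so a rise of abundant genes lowers all others. Values of the 12 gene identifiers that stood on several lines were summed, and the empty cells of 56 lines were read as 0.

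From these values log2(TPM + 1) was computed, and limma 3.58.1 in R 4.3.3 was fitted to all 12 culture libraries (11541 genes) and, separately, to all 15 embryo libraries (11880 genes), over autosomal protein-coding genes with TPM over 2 in at least 3 libraries, with Benjamini-Hochberg adjustment over all genes of a comparison. The limma step was tested on simulated data. The members and gene lists were chosen with earlier results of these data known. Named were the 9 members in every library, from other lists at most 3 called genes per comparison beside counts, and the 3 genes of most similar pattern; further list genes (Cer1, Cxcr4, Foxa2, Eomes, T, Pdgfa, Afp, Ttr and names beside counts) were chosen after their values were seen. Alternatives were the pseudocount, the filter, the gene set, rescaling, the groups fitted, a replicate block, an intensity trend, leaving out replicates and averaging near-identical ones. The list counts without ESC_3D replicate 3 were added after the data were seen. Gene positions are those of the deposited file (mm10) and promoters from RefSeq on GRCm38.p6.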

Additional observations from a re-analysis of the deposited data

Results flagged for a closer look

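The difference from the shared EpiSC libraries differed between the ESC-derived and the embryo-derived 3D lines for 3 members. Because the EpiSC level cancels, the test of that difference is the direct comparison of the 3D lines in limma. The 3D lines share growth in 3 dimensions and a medium, inhibitors included. Origin and genetic background cannot be told apart in that comparison. Gata6 differed by -2.16, Hhex by -2.16 and Pdgfra by -1.85 on the log2(TPM + 1) scale, all lower in ESC_3D. For Hhex and Pdgfra all 3 ESC_3D libraries were below all 3 Embryo_3D libraries, as they were for Dab2, which was not called. The share of all genes that did so was not counted. Pdgfra passed the filter on low values only through Embryo_3D, so its difference and lack of overlap are in part a result of that filter. For Gata6, ESC_3D replicate 3 lay inside the Embryo_3D range. The Gata6 call was lost in 7 of 15 alternatives, among them no filter on low values (adjusted p 0.0675) and averaging near-identical replicates (-1.62, adjusted p 0.256). The Hhex call was lost in 1 of 15, when near-identical replicates were averaged (-1.76, adjusted p 0.112), and the Pdgfra call was kept in 15 of 15.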

How the results depend on the processing

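The numbers of members called kept within 1.5 times in 147 of 150 comparisons under alternatives. The exceptions were all in ESC_3D minus Embryo_3D, with 3 in the main test, 5 with an intensity trend in limma, from 2 to 5 when 1 replicate was left out (5 without ESC_3D replicate 3), and 1 when near-identical replicates were averaged. Differences that changed sign were never called. With a pseudocount of 0.1, Pdgfra in ESC_3D minus EpiLC was -0.011, and with rescaled TPM Sox17 in E5.5 minus E4.5 was -0.070. Leaving out 1 replicate turned 11 others. Over the fits that left out 1 replicate, and not the other alternatives, the ranges in ESC_3D minus EpiLC were -0.13 to 1.17 for Gata6, -0.38 to 0.49 for Hhex and -0.11 to 0.10 for Pdgfra. They were -0.13 to 0.26 for Foxa1 in E4.5 minus E3.5, -0.10 to 0.26 for Sox17 and -0.17 to 0.36 for Hhex in E5.5 minus E4.5, -0.026 to 0.14 for Sox7 in E6.5 minus E5.5 and -0.060 to 0.11 for Sox17 in E7.5 minus E6.5. The number of all genes called moved from 457 to 719 with a pseudocount of 0.1 and to 285 with averaged replicates in ESC_3D minus Embryo_3D, from 142 to 262 with that pseudocount and to 316 with all genes past the filter in E6.5 minus E5.5, and from 1496 to 2365 with all genes past the filter in E7.5 minus E6.5. Rescaling TPM by median-of-ratios factors changed the split of genes called higher and lower from 228 and 229 to 270 and 149 in ESC_3D minus Embryo_3D, from 1756 and 593 to 1336 and 786 in EpiSC minus EpiLC, and from 1265 and 231 to 736 and 382 in E7.5 minus E6.5, as the median of all genes there moved from 0.31 to 0.01. The causes were not tested. Same-numbered replicates did not deviate together in all 3 pairs of any comparison, with correlations from -0.15 to 0.16. In the replicate block fit, 4 members were called in ESC_3D minus Embryo_3D, Sox17 being added at -1.74, and no other call changed. Of the 27 genes of most similar pattern, 5 were found again on log2(TPM + 1) profiles. Depth is unknown, so low TPM values have no counting error here.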
